A study of Mus musculus with 186 samples.

Results

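The 8 genes Has1, Has2, Has3, Hyal1, Hyal2, Cd44, Vcan and Tnfaip6 make, cut, hold or bind hyaluronan. They were chosen by name, with earlier results of these data known, and found by their Ensembl IDs in a table of 22095 gene IDs. All 8 were present once in the table, and all 8 passed the filter on low counts in both tissues, so each was tested among 15825 genes in skin and 15647 genes in lung. All are protein-coding genes of GRCm38 (GENCODE M21). The synthases lie apart, Has1 at chr17:17843323-17855205 and Has2 at chr15:56665627-56694539 on the minus strand and Has3 at chr8:106870242-106884566 on the plus strand. The hyaluronidases are neighbours on the plus strand, Hyal2 at chr9:107567945-107572779 and Hyal1 at chr9:107576927-107581710. Cd44 lies at chr2:102811141-102901665 and Vcan at chr13:89655312-89742509 on the minus strand, and Tnfaip6 at chr2:52038009-52056686 on the plus strand.

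Hyaluronan is a long unbranched sugar chain of the extracellular matrix that is spun out through the plasma membrane by the hyaluronan synthases rather than built in the Golgi. Long chains hold water and organise a soft provisional matrix together with binding proteins, whereas cleaved fragments act on receptors of inflammatory cells. In lung and skin the chain is known to accumulate after injury, where fibroblasts, epithelium and leukocytes share its synthesis, binding and clearance.

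RNA was sequenced from the superior lobe of the lung and from punch biopsies of skin of female C57BL/6 mice about 12 weeks old, a model of scleroderma in which bleomycin, a DNA-damaging drug, is injected under the skin. Bleomycin groups received 10 mg/kg/day and control groups PBS, into 2 marked circles of shaved skin between the shoulders, 5 times per week for 2 weeks. The labels do not state whether the biopsies came from the injected skin. From day 12, with the last dose on day 27, the later groups were also dosed by mouth with SB525334, an inhibitor of the TGF-beta receptor kinase ALK5, at 30 mpk BID, or with its vehicle. Each tissue had 12 groups and 93 libraries. The groups given bleomycin and SB525334 held 9 libraries on day 21 and 8 on day 28. The groups given bleomycin held 7 libraries on day 7, 8 on day 14, and, with vehicle, 7 on day 21, 7 on day 28 and 8 on day 42. The PBS groups held 8 libraries on day 7, 8 on day 14, and, with vehicle, 8 on day 21, 7 on day 28 and 8 on day 42. Days 7 and 14 had no oral dosing, and no PBS group received SB525334.

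Total counts per library ran from 14.68M to 43.07M in skin and from 4.79M to 38.34M in lung. Krt14, a keratin of basal epidermis, was at 945.7 to 9494 CPM (counts scaled by effective library size) in skin and at 0.51 to 287 CPM in lung, and Sftpc, a surfactant protein of alveolar type 2 cells, at 1.31 to 297 CPM in skin and at 3107 to 20114 CPM in lung, so every library matched its labelled tissue. By composition alone, 18 lung libraries stood apart. They had more than 12% of counts in their 10 most abundant genes, more than 5% in ribosomal protein genes, or met a marker rule. That rule was over 500 CPM of summed markers of hair, epidermis, foregut, muscle, liver or thymus. In skin only the rule on the 10 most abundant genes was applied. The highest share there was 11.49%, so 0 skin libraries stood apart. The 18 comprised 6 of the day 28 SB525334 group, 4 of the day 28 bleomycin group with vehicle, 1 of the day 42 bleomycin group, 2 of the day 7 bleomycin group, and 2 of the day 7, 2 of the day 14 and 1 of the day 28 PBS groups. Of these, 10 had a high ribosomal protein share, and all 10 were from day 28 and from plate 1, plates being read from the P1 or P2 in the sample descriptions. Lung results of the 8 genes are therefore given with and without the 18 where a call changed. On day 28 this leaves out 6 of 8 SB525334, 4 of 7 bleomycin and 1 of 7 PBS libraries. For a call lost there, the smaller groups and the change of composition cannot be told apart.

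In PBS mice, skin carried more Vcan, Tnfaip6 and Has2 RNA than lung. Per kilobase of exon, Cd44, the main cell surface receptor for hyaluronan, had the highest median over the 39 PBS libraries of both tissues, at 44.2 CPM per kb in skin (range 31.0 to 59.1) and 27.0 CPM per kb in lung (range 21.5 to 37.3). In skin the order of medians then ran Vcan 13.6, Tnfaip6 11.2, Hyal1 11.0, Hyal2 8.60, Has2 4.09, Has3 0.829 and Has1 0.452 CPM per kb. In lung it ran Hyal2 20.6, Hyal1 9.41, Vcan 2.34, Tnfaip6 1.2, Has1 0.592, Has3 0.405 and Has2 0.314 CPM per kb. Neighbours in this order mostly overlapped, for example Vcan at 7.33 to 32.0 and Tnfaip6 at 5.07 to 28.5 CPM per kb in skin, but in lung Hyal2, at 17.0 to 23.3, did not overlap Hyal1, at 4.49 to 12.8 CPM per kb. The levels are over RNA of whole tissue, in which fewer cells of a type and less RNA per cell cannot be told apart.

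In the fit of both tissues (edgeR's quasi-likelihood test with Benjamini-Hochberg adjustment, used throughout unless another is named), 7 of the 8 genes differed between skin and lung in PBS mice, against 87.5% of all genes tested. Has2, the main hyaluronan synthase of mesenchymal cells, was higher in skin by 3.67 ± 0.12 on the log2 scale (SE, adjusted p = 1.89e-69), and Tnfaip6 by 3.30 ± 0.11 (adjusted p = 3.12e-66). Vcan was higher in skin by 2.47 ± 0.11, Has3 by 1.82 ± 0.19, Cd44 by 0.71 ± 0.03 and Hyal1 by 0.36 ± 0.05. Hyal2 was lower in skin, with a log2 difference of -1.18 ± 0.03 (adjusted p = 2.78e-77), and Has1 did not pass the test at -0.15 ± 0.18 (adjusted p = 0.407). The strand setting of the counting is not given in the sources used here, and 4.3% of the exon bases of Has2 and 5.5% of those of Has3 lie opposite exons of Has2os and Chtf8, so reads of the 2 strands cannot be told apart there.

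In skin, the members called in the comparison of bleomycin with PBS changed with the day. On day 7, 2 of 8 were higher and 2 lower, beside 25.5% of all genes higher and 20.7% lower, 46.2% in all. On day 14, 4 were higher and 2 lower, beside 31.5% of all genes higher and 28.1% lower, 59.6% in all. On day 21, 3 were higher and 2 lower, beside 20.2% of all genes higher and 21.0% lower, 41.2% in all. On day 28, 5 were higher and 1 lower, beside 12.7% of all genes higher and 11.6% lower, 24.3% in all, with a median log2 fold change over the 8 of 0.75 beside -0.03 over all genes tested. On day 42, 3 were higher and 0 lower, beside 5.28% of all genes higher and 4.96% lower, 10.2% in all, with a median of 0.04 beside -0.04.

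Has3, a synthase of epithelia that is made by keratinocytes, was the synthase that rose in skin during the injections. On day 14 it was at 8.06, 22.2 and 34.0 CPM in bleomycin skin (lowest, median and highest), against 1.17, 4.34 and 6.94 CPM in PBS skin. Every bleomycin library was above every PBS library, and the log2 fold change was 2.55 ± 0.55 (adjusted p = 4.45e-05). On day 7 it was at 6.89, 13.1 and 42.3 CPM in bleomycin skin and 1.66, 3.48 and 16.4 CPM in PBS skin, with 3 of 7 bleomycin libraries above the highest PBS library (log2 fold change 1.79 ± 0.54, adjusted p = 0.00471). Within plates the day 14 log2 difference was 1.82 on plate 1 and 3.18 on plate 2. On days 21, 28 and 42 the log2 fold changes were -0.32 ± 0.53, -0.41 ± 0.54 and -0.75 ± 0.51 and did not pass the test. The day 21 difference was -1.96 on plate 1 and 0.93 on plate 2. On day 28 it was -0.41 and 1.81, with 2 against 2 libraries on plate 2, and on day 42 -0.03 and -1.24. PBS skin itself spread widely, at 2.39, 15.2 and 40.6 CPM on day 21 and 4.40, 23.1 and 39.8 CPM on day 42. Has3 differed among the PBS days (adjusted p = 0.000165), 1 of 5 members to do so, with Has1, Hyal2, Cd44 and Vcan, beside 55.2% of all genes. The PBS groups of days 21, 28 and 42 had oral vehicle and those of days 7 and 14 had none. Between these, day and oral vehicle cannot be told apart. With summed hair and skeletal muscle markers as terms of the fit, the adjusted p of Has3 for the PBS days became 0.205. Hyal2 (0.508) and Vcan (0.0717) lost the call too, whereas Has2 (0.023) and Tnfaip6 (0.00635) were then called. Over all genes 2380 of 15825 were called in that fit. In that fit the bleomycin differences of Has3 turned to 1.01 on day 21 and 0.33 on day 28, neither of which passed the test (adjusted p = 0.114 and 0.685). On day 21 the summed muscle markers of bleomycin and PBS skin did not overlap. The muscle term and bleomycin can thus hardly be told apart on that day. Of 10 epidermal keratinocyte markers tested, 6 were higher and 2 lower on day 14, and their summed level was 15927 to 26028 CPM in bleomycin skin and 8787 to 12230 CPM in PBS skin. The part of these markers in the Has3 result was not tested.

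Has1 and Has2 passed the test in skin after the injections had ended. Has1, a synthase induced by inflammatory signals and normally scarce, was at 4.96, 14.2 and 32.5 CPM in bleomycin skin on day 28, against 1.12, 5.02 and 13.2 CPM in PBS skin. The groups overlapped, with 5 of 7 bleomycin libraries above the highest PBS library, and the log2 fold change was 1.5 ± 0.44 (adjusted p = 0.00777). On day 42 Has1 was at 5.39, 10.3 and 34.0 CPM in bleomycin skin and 1.36, 2.76 and 24 CPM in PBS skin (log2 fold change 1.32 ± 0.41, adjusted p = 0.0291), and 7 of 8 bleomycin libraries were above the PBS mean. On days 7 and 14 its log2 fold changes were -0.94 ± 0.48 and -0.95 ± 0.49, which did not pass the test (adjusted p = 0.1 and 0.0886). Has2 was at 18.2, 33.4 and 39.9 CPM in bleomycin skin on day 28 and 12.7, 19.7 and 21.8 CPM in PBS skin. All but 1 of the 7 bleomycin libraries were above the highest PBS library (log2 fold change 0.82 ± 0.19, adjusted p = 0.000762), and on the other 4 days Has2 did not pass the test, with log2 fold changes between -0.16 and 0.28.

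Tnfaip6, also called TSG-6, a secreted protein that binds hyaluronan and transfers heavy chains of inter-alpha-inhibitor onto it, turned from lower to higher in skin. On day 14 it was at 3.96, 7.91 and 10.9 CPM in bleomycin skin and 8.67, 12.9 and 25.8 CPM in PBS skin, with all 8 bleomycin libraries below the PBS mean (log2 fold change -0.86 ± 0.26, adjusted p = 0.00354). On day 28 it was at 70.3, 77.2 and 138 CPM in bleomycin skin, against 14.7, 22.9 and 43.7 CPM in PBS skin. The groups did not overlap, and the log2 fold change was 1.76 ± 0.27 (adjusted p = 4.89e-07), with 1.78 on plate 1 and 1.89 on plate 2. It was also higher on day 21 (0.88 ± 0.26, adjusted p = 0.00485) and on day 42 (0.85 ± 0.25, adjusted p = 0.0212). With hair and muscle terms the day 21 difference was 0.57 and did not pass the test (adjusted p = 0.0853). Summed muscle markers did not overlap between bleomycin and PBS skin on that day, so the muscle term and bleomycin can hardly be told apart. On day 7 the log2 fold change was -0.69 ± 0.27 (adjusted p = 0.0271). Refits by limma-trend that each left out 1 library lost the day 7 call for 8 of 15 libraries, namely bleomycin replicates 3, 4, 5 and 6 and PBS replicates 1, 2, 5 and 7, at adjusted p = 0.0538 to 0.109.

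Vcan encodes versican, a large proteoglycan whose head domain binds hyaluronan and whose long chains make a loose matrix. It was higher in bleomycin skin on days 14, 21, 28 and 42, most on day 28. On day 28 it was at 611, 855 and 1053 CPM in bleomycin skin, against 164, 243 and 463 CPM in PBS skin. No bleomycin library reached down to a PBS library, and the log2 fold change was 1.64 ± 0.23 (adjusted p = 2.8e-08), with 1.43 on plate 1 and 2.46 on plate 2. By day 21 it was at 349, 706 and 1003 CPM in bleomycin skin and 153, 265 and 419 CPM in PBS skin (1.40 ± 0.22, adjusted p = 3.46e-07). The differences were smaller on day 14 (0.65 ± 0.21, adjusted p = 0.00599) and day 42 (0.75 ± 0.21, adjusted p = 0.0129), and on day 7, at 0.40 ± 0.22, Vcan did not pass the test (adjusted p = 0.117). With only the day 42 bleomycin and PBS groups in the edgeR fit, the day 42 calls were lost, at adjusted p = 0.0741 for Vcan, 0.23 for Has1 and 0.158 for Tnfaip6.

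**Figure D1:**
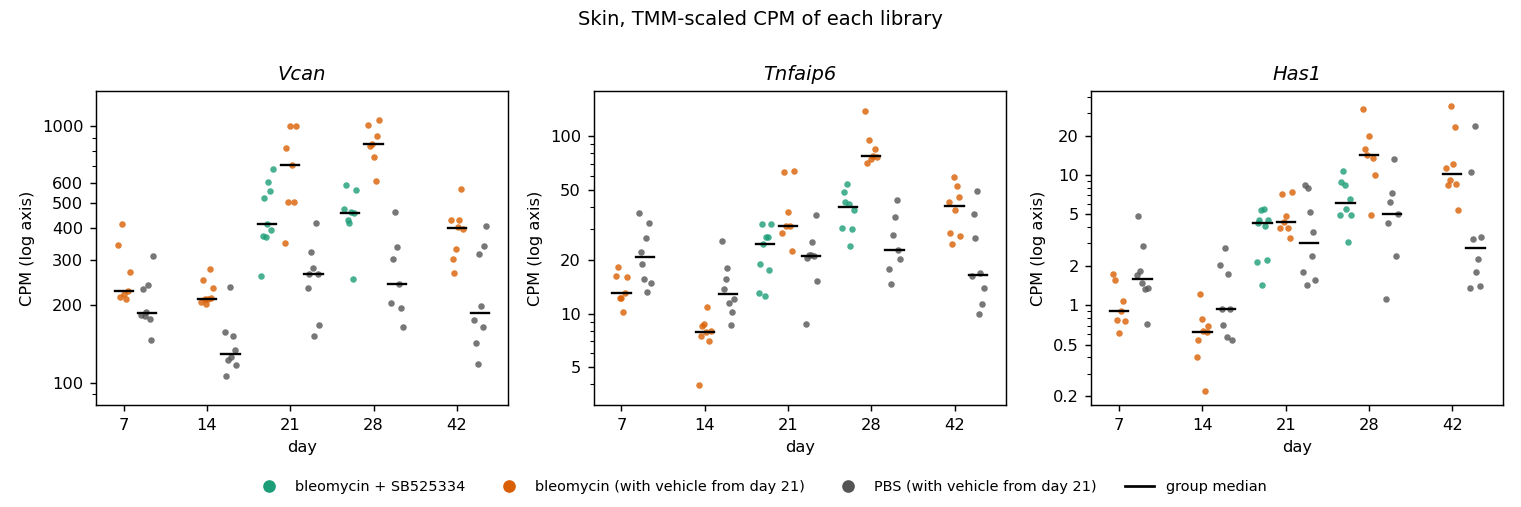
Levels of Vcan, Tnfaip6 and Has1 in skin, in CPM on a log axis, by day (x axis); each point is 1 library, colours mark the groups given bleomycin and SB525334, bleomycin, and PBS, and bars mark medians. On day 28 the bleomycin libraries with vehicle lie above all PBS libraries for Vcan and Tnfaip6, and the medians of the SB525334 group lie between those of the other groups.

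Cd44 was higher in bleomycin skin from day 7, when it was at 393, 455 and 502 CPM, against 233, 269 and 321 CPM in PBS skin (log2 fold change 0.71 ± 0.08, adjusted p = 2.11e-10). It was at 399, 462 and 661 CPM in bleomycin skin on day 14, against 210, 243 and 313 CPM in PBS skin (log2 fold change 0.95 ± 0.08, adjusted p = 1.14e-16). On day 28 it was at 488, 530 and 633 CPM in bleomycin skin and 300, 353 and 374 CPM in PBS skin (0.68 ± 0.09, adjusted p = 3.3e-09). The groups did not overlap on days 7, 14, 21 or 28, although the difference on day 21 was smaller, at 0.41 ± 0.08 (adjusted p = 6.66e-05). On day 42 it was at 272, 322 and 385 CPM in bleomycin skin and 264, 315 and 400 CPM in PBS skin, with a log2 difference of 0.01 ± 0.08 (adjusted p = 0.956), so no difference was detectable. CD44 is carried by leukocytes, keratinocytes and fibroblasts alike. Of 15 macrophage markers tested in skin, 10 or more were higher on each of days 7 to 28 and 5 on day 42, and all 7 tested neutrophil markers were higher on days 7 and 14, with summed levels of 104 to 1455 CPM in bleomycin skin and 4.70 to 21.6 CPM in PBS skin on day 14. Their part in the Cd44 result was not tested.

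The fibroblast markers moved with Tnfaip6 and Vcan in part. Of 14 tested in skin, 0 were higher and 13 lower on day 14, and 6 were higher and 2 lower on day 28. Their summed level on day 14 was 2950 to 6667 CPM in bleomycin skin and 12185 to 22133 CPM in PBS skin, and on day 28 it was 37374 to 46376 CPM in bleomycin skin and 8178 to 24124 CPM in PBS skin. Collagen genes weigh heavily in these sums. Over the 93 skin libraries the medians were 6458 CPM for Col3a1, 2743 for Col1a2 and 1255 for Col1a1, beside 1575 for Dcn and 497 for Lum. Vcan was thus higher on day 14 while the summed fibroblast markers were lower, and on day 28 both were higher. The part of fibroblast content in either result was not tested.

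Of the 5 genes higher in skin on day 28, the promoters of the 3 with the largest log2 fold changes are shown for the bases that precede their transcripts, since a reader can see in them which short motifs they hold. RefSeq promoter sequences (GRCm38.p6) matched 6 of the 8 genes, not Has2 and Has3. Capitals mark an AP-1 site (TGANTCA), a cyclic AMP response element (TGACGTCA), a TEAD site (GGAATG) or a TATA box (TATAAA), each searched on both strands. A SMAD box (CAGAC) and a kappaB-like motif were searched too. They are left in lower case, since 42.1% and 45.4% of promoters hold them. The Tnfaip6 window is chr2:52037863-52038008 on the plus strand, the Has1 window chr17:17855206-17855438 on the minus strand, and the Vcan window chr13:89742513-89742762 on the minus strand.
Tnfaip6: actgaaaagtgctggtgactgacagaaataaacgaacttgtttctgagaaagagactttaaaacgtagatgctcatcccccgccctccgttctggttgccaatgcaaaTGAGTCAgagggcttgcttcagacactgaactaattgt
Has1: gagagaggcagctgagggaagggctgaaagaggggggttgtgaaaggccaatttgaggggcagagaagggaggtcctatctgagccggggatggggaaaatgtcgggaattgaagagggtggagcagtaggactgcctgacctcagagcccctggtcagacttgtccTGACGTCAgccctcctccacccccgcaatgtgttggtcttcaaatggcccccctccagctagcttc
Vcan: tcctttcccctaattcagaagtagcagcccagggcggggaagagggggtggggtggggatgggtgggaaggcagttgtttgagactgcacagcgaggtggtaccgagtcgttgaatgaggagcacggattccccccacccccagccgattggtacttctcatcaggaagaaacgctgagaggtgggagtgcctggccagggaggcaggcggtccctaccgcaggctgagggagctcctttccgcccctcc
Tnfaip6 holds an AP-1 site 142 to 136 bases before its RefSeq start, a motif that 6.9% of 27025 promoters of 250 bases hold, and Has1 holds the cyclic AMP response element 83 to 76 bases before its start, which 1.6% hold. The full Tnfaip6 promoter also holds a TEAD site 8 to 3 bases before the RefSeq start, outside the 146 bases shown. The Has1 and Tnfaip6 promoters hold the SMAD box and the Vcan promoter the kappaB-like motif. The Vcan window holds none of the 4 motifs in capitals, of which the TEAD site is in 12.6% and the TATA box in 13% of promoters. The matches describe letters in these windows and do not show that a factor binds there.

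Of the hyaluronidases, Hyal1 was lower in bleomycin skin on days 7 to 28, and Hyal2 was higher on day 14 and lower on day 21. Hyal1, a lysosomal hyaluronidase, was at 29.5, 30.7 and 36.1 CPM in bleomycin skin on day 28 and 38.6, 42.0 and 50.8 CPM in PBS skin. The groups did not overlap, and the log2 fold change was -0.44 ± 0.08 (adjusted p = 3.78e-06). It was also lower on day 7 (-0.26 ± 0.07, adjusted p = 0.00232), day 14 (-0.16 ± 0.07, adjusted p = 0.0458) and day 21 (-0.33 ± 0.07, adjusted p = 2e-04). The day 14 call was lost by limma-trend without any 1 of 9 libraries, namely bleomycin replicates 1, 2, 3 and 5 and PBS replicates 2, 3, 4, 5 and 8, at adjusted p = 0.0524 to 0.0904. Counts of Hyal1 are uncertain, because 50.8% of its exon bases are shared with Naa80, an actin acetyltransferase gene on the same strand, which was itself lower in skin on day 21 (-0.31, adjusted p = 0.012) and day 28 (-0.30, adjusted p = 0.0307). Hyal2, a hyaluronidase of the cell surface and lysosome that cuts long chains into shorter ones, was higher on day 14 (0.25 ± 0.08, adjusted p = 0.0066), at 23.9, 31.4 and 34.8 CPM in bleomycin skin and 22.2, 26.0 and 28.3 CPM in PBS skin. It was lower on day 21 (-0.31 ± 0.08, adjusted p = 0.00189), at 21.9, 25.0 and 28.8 CPM in bleomycin skin and 23.8, 31.5 and 39.5 CPM in PBS skin. With hair and muscle terms the day 21 difference was -0.13 and did not pass the test (adjusted p = 0.199). All 13 hair shaft markers tested were lower in bleomycin skin on that day, with summed levels of 8.56 to 346 CPM in bleomycin skin and 10.2 to 11618 CPM in PBS skin. Of 10 skeletal muscle markers, 9 were higher on that day and 0 lower, with summed levels of 3209 to 11288 CPM in bleomycin skin and 8.50 to 2481 CPM in PBS skin. These muscle sums did not overlap, so the muscle term and bleomycin can hardly be told apart on that day.

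**Figure D2:**
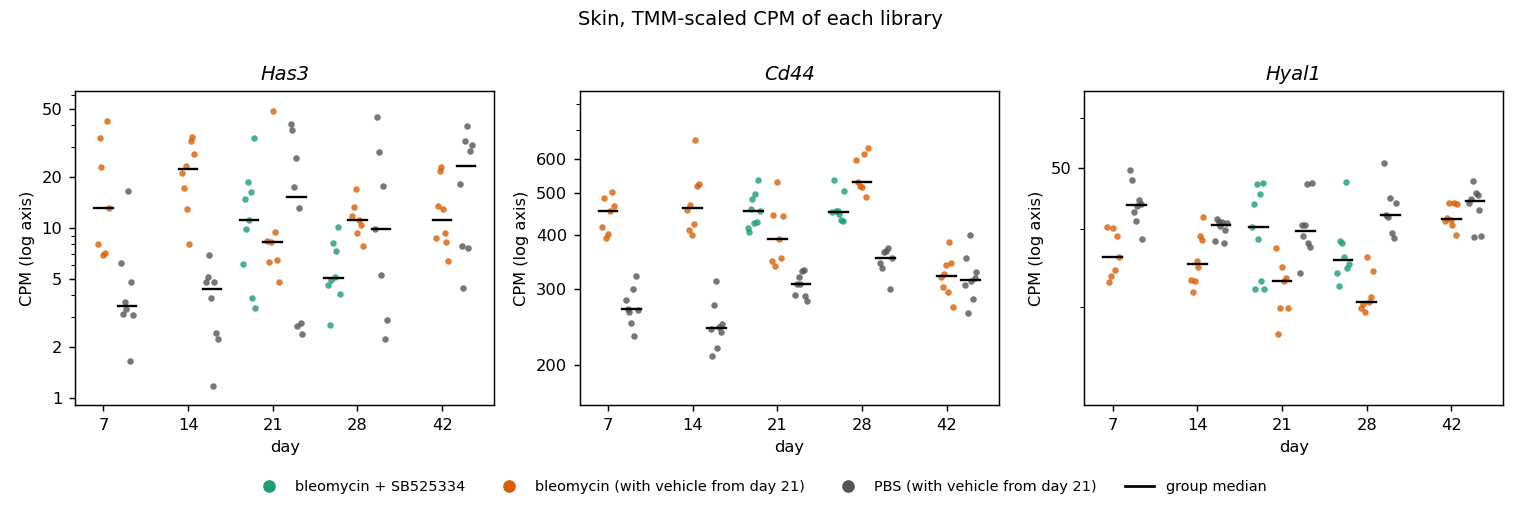
Levels of Has3, Cd44 and Hyal1 in skin, in CPM on a log axis, by day (x axis), with 1 point per library, bars at medians and colours as groups given bleomycin and SB525334, bleomycin, and PBS. Has3 and Cd44 are separated on day 14, and Cd44 bleomycin and PBS libraries overlap on day 42.

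The change of the skin response between day 14, at the end of injections, and day 42 was tested as the difference of the day 42 and day 14 effects. In it 5 of 8 genes passed the test, beside 50.9% of all genes. The day 42 groups had oral vehicle and the day 14 groups had none, so day and oral vehicle cannot be told apart in this difference. The Has1 effect was higher on day 42 than on day 14 by 2.26 ± 0.64 (adjusted p = 0.00231) and the Tnfaip6 effect by 1.71 ± 0.36 (adjusted p = 7.57e-05). Has1 was scarce on day 14, at 0.22, 0.63 and 1.22 CPM in bleomycin skin and 0.54, 0.94 and 2.78 CPM in PBS skin, which limits the precision of its difference. The Has3 difference was -3.30 ± 0.74 (adjusted p = 0.000167), that of Cd44 -0.94 ± 0.11 (adjusted p = 3.39e-10) and that of Hyal2 -0.40 ± 0.11 (adjusted p = 0.00279).

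In skin of bleomycin mice, SB525334 against vehicle gave 1 higher and 5 lower members on day 28, beside 12.2% of all genes higher and 11.6% lower, 23.9% in all. On day 21 it gave 1 higher and 2 lower, beside 5.81% of all genes higher and 6.02% lower, 11.8% in all. The median log2 fold change over the 8 on day 28 was -0.70, beside 0.00 over all genes tested. Tnfaip6 was at 24.1, 39.9 and 54.0 CPM with SB525334 on day 28 and at 70.3, 77.2 and 138 CPM with vehicle. Vcan was at 253, 460 and 591 CPM with SB525334 and at 611, 855 and 1053 CPM with vehicle. For both genes no SB525334 library overlapped a vehicle library, with log2 fold changes of -1.2 ± 0.26 for Tnfaip6 (adjusted p = 0.00037) and -0.92 ± 0.22 for Vcan (adjusted p = 0.00106), and the within-plate differences were -1.18 and -1.25 for Tnfaip6 and -0.92 and -0.95 for Vcan. Has1 fell by 1.26 ± 0.42 (adjusted p = 0.0219), Has2 by 0.48 ± 0.18 (adjusted p = 0.0493) and Cd44 by 0.26 ± 0.08 (adjusted p = 0.0168) on the log2 scale. Cd44 was at 431, 452 and 536 CPM with SB525334 and at 488, 530 and 633 CPM with vehicle, so the groups overlapped. Hyal1 was higher with SB525334 by 0.22 ± 0.07 (adjusted p = 0.0186).

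These day 28 calls differed in how firmly they held. By limma-trend on all libraries Has2 had adjusted p = 0.063. By the same method the Has1 call was lost without any 1 of 7 libraries, namely vehicle replicates 1, 2, 4 and 6 and SB525334 replicates 1, 5 and 6 (adjusted p = 0.054 to 0.101), and the Hyal1 call without SB525334 replicate 6 (adjusted p = 0.0865). With hair and muscle terms Hyal1 was at 0.16 on day 28 (adjusted p = 0.151). On day 21 the SB525334 differences were -0.59 ± 0.21 for Vcan (adjusted p = 0.0479), -0.78 ± 0.25 for Tnfaip6 (adjusted p = 0.0304) and 0.31 ± 0.07 for Hyal1 (adjusted p = 0.0016). The Vcan call on day 21 was lost in 7 other settings, among them the hair and muscle terms at -0.48 (adjusted p = 0.082). The Tnfaip6 call was lost by limma-trend without any 1 of 7 libraries, namely SB525334 replicates 1, 2, 5 and 8 and vehicle replicates 2, 4 and 7 (adjusted p = 0.051 to 0.129). Summed fibroblast markers on day 28 were 12338 to 31526 CPM with SB525334 and 37374 to 46376 CPM with vehicle, with 0 of 14 higher and 7 lower, and their part in the falls of Vcan and Tnfaip6 was not tested. Collagen genes weigh heavily in these sums as well.

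Against PBS, and sharing groups with the comparisons above, the SB525334 skin of day 28 still had higher Vcan (0.73 ± 0.22, adjusted p = 0.0081) and Cd44 (0.42 ± 0.08, adjusted p = 9.49e-05), 2 of 8 members higher and 2 lower, beside 14.3% of all genes higher and 14.3% lower, 28.6% in all. Tnfaip6, at 0.56 ± 0.26, and Has1, at 0.24 ± 0.43, did not pass the test there (adjusted p = 0.0933 and 0.701). Hyal1 was lower (-0.22 ± 0.07, adjusted p = 0.0177), a call that limma-trend lost without PBS replicate 1 (adjusted p = 0.0638), and Has3 was lower (-1.36 ± 0.54, adjusted p = 0.0473) but differed in sign between plate 1 (-1.64) and plate 2 (1.33). The Has3 call was lost in 6 other settings, and with hair and muscle terms the difference was -0.29 (adjusted p = 0.705). On day 21 Cd44 was higher than in PBS skin by 0.57 ± 0.08 (adjusted p = 7.73e-09), without overlap, and Vcan by 0.81 ± 0.21 (adjusted p = 0.000652), 2 of 8 members higher and 0 lower, beside 23.9% of all genes higher and 28.6% lower, 52.5% in all. Has3, at -0.34 and not called there (adjusted p = 0.585), turned to 1.27 and was called with hair and muscle terms (adjusted p = 0.0321). Of 12 genes known to respond to ALK5 and SMAD signalling, 0 were higher and 1 lower with SB525334 against vehicle in skin on day 21, and 1 was higher and 4 lower on day 28, of which Col1a1, a fibrillar collagen chain, fell by 1.12 on the log2 scale on day 28 (adjusted p = 0.00168).

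In lung, Cd44 was called higher in bleomycin mice on all 5 days, and Has2 and Vcan on 4 days each. On day 7, 3 of 8 members were higher and 1 lower, beside 13.9% of all genes higher and 17.8% lower, 31.7% in all. On day 14, 3 were higher and 1 lower, beside 21.0% of all genes higher and 25.4% lower, 46.4% in all. On day 21, 4 were higher and 0 lower, beside 15.9% of all genes higher and 19.4% lower, 35.3% in all. On day 28, 2 were higher and 3 lower, beside 19.7% of all genes higher and 18.4% lower, 38.1% in all. On day 42, 3 were higher and 2 lower, beside 12.6% of all genes higher and 6.77% lower, 19.4% in all. With only the day 28 bleomycin and PBS groups in the edgeR fit, all 5 calls of day 28 were lost, at adjusted p = 0.204 for Has1, 0.108 for Has2, 0.1 for Hyal1, 0.102 for Hyal2 and 0.276 for Cd44. The median log2 fold change over the 8 was highest on day 21, at 0.47 beside -0.03 over all genes tested.

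Has2 was at 3.17, 6.39 and 8.27 CPM in bleomycin lung on day 14, against 0.543, 1.21 and 3.47 CPM in PBS lung. All but 1 of the 8 bleomycin libraries were above the highest PBS library (log2 fold change 2.05 ± 0.29, adjusted p = 1.57e-08). By day 21 it was at 2.34, 4.59 and 5.10 CPM in bleomycin lung and 0.790, 1.10 and 2.15 CPM in PBS lung, without overlap (1.83 ± 0.30, adjusted p = 9.11e-07), with 1.90 on plate 1 and 1.67 on plate 2. It was also higher on day 7 (1.00 ± 0.30, adjusted p = 0.00646) and day 28 (1.2 ± 0.32, adjusted p = 0.00241), and on day 42, at 0.35 ± 0.30, it did not pass the test (adjusted p = 0.475). The difference of the day 42 and day 14 effects was -1.70 ± 0.41 (adjusted p = 0.00256), the only 1 of the 8 called there, beside 15.3% of all genes. Among the lung PBS days 4 of the 8 differed, beside 21.7% of all genes, namely Has1 (adjusted p = 0.000122), Has3 (0.0201), Hyal1 (0.032) and Tnfaip6 (0.0239). As in skin, only the PBS groups from day 21 on had oral vehicle. The day 42 bleomycin group had it too, and the day 14 bleomycin group did not. Day and oral vehicle thus cannot be told apart in the difference of the day 42 and day 14 effects. The Has3 call among the PBS days was lost without the 18 libraries (adjusted p = 0.801). Without the 18 libraries that stood apart, the log2 fold change of Has2 was 1.23 on day 7, 2.55 on day 14 and 1.33 on day 28.

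Has1 and Has3 each gave a call in lung that was lost without such libraries. Has3 was lower on day 7, at 1.62, 2.53 and 3.30 CPM in bleomycin lung and 1.94, 2.82 and 8.15 CPM in PBS lung (-0.65 ± 0.23, adjusted p = 0.0234). Its 3 highest lung values, 8.15 and 6.43 CPM in PBS replicates 5 and 6 of day 7 and 8.69 CPM in PBS replicate 6 of day 14, stood in the libraries that held hair and epidermal markers. Without the 18 libraries the day 7 difference was -0.08 (adjusted p = 0.698), and Has3 was higher on days 14, 21 and 42, by 0.39 (adjusted p = 0.013), 0.49 (adjusted p = 0.0011) and 0.62 (adjusted p = 0.000188). Has1 was lower on day 28, at 1.95, 3.55 and 5.60 CPM in bleomycin lung and 2.80, 6.28 and 22.2 CPM in PBS lung (-1.07 ± 0.37, adjusted p = 0.0181). Without the 18 libraries the difference was -1.22 (adjusted p = 0.0635), and without PBS replicate 6, which had the 22.2 CPM, it was -0.54 (adjusted p = 0.229).

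Vcan was at 103, 167 and 195 CPM in bleomycin lung on day 14, against 30.6, 37.9 and 90.9 CPM in PBS lung (1.78 ± 0.25, adjusted p = 7.28e-09). By day 21 it was at 55.2, 101 and 115 CPM in bleomycin lung and 21.5, 32.5 and 40.8 CPM in PBS lung (1.63 ± 0.25, adjusted p = 2.57e-07). On days 7, 14 and 21 every bleomycin library was above every PBS library. On day 28 it was at 29.5, 69.2 and 106 CPM in bleomycin lung and 21.2, 28.0 and 178 CPM in PBS lung, and 0.52 ± 0.26 did not pass the test (adjusted p = 0.107). The highest PBS value belonged to 1 library, replicate 6, whose summed fibroblast markers reached 8862 CPM and whose Has1 level of 22.2 CPM was also the highest of its group. Without that library the Vcan difference was 1.22 and passed the test (adjusted p = 2.58e-05), without the 18 libraries that stood apart it was 0.27 (adjusted p = 0.6), and within plates it was 1.29 on plate 1, with 5 against 5 libraries, and -0.58 on plate 2, with 2 against 2. On day 42 Vcan was higher again (0.87 ± 0.25, adjusted p = 0.00637), with 7 of 8 bleomycin libraries above the highest PBS library. Of 15 fibroblast markers tested in lung, 3 were higher and 4 lower on day 7, 5 higher and 3 lower on days 14 and 21, 2 higher and 7 lower on day 28, and 3 higher and 5 lower on day 42.

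**Figure D3:**
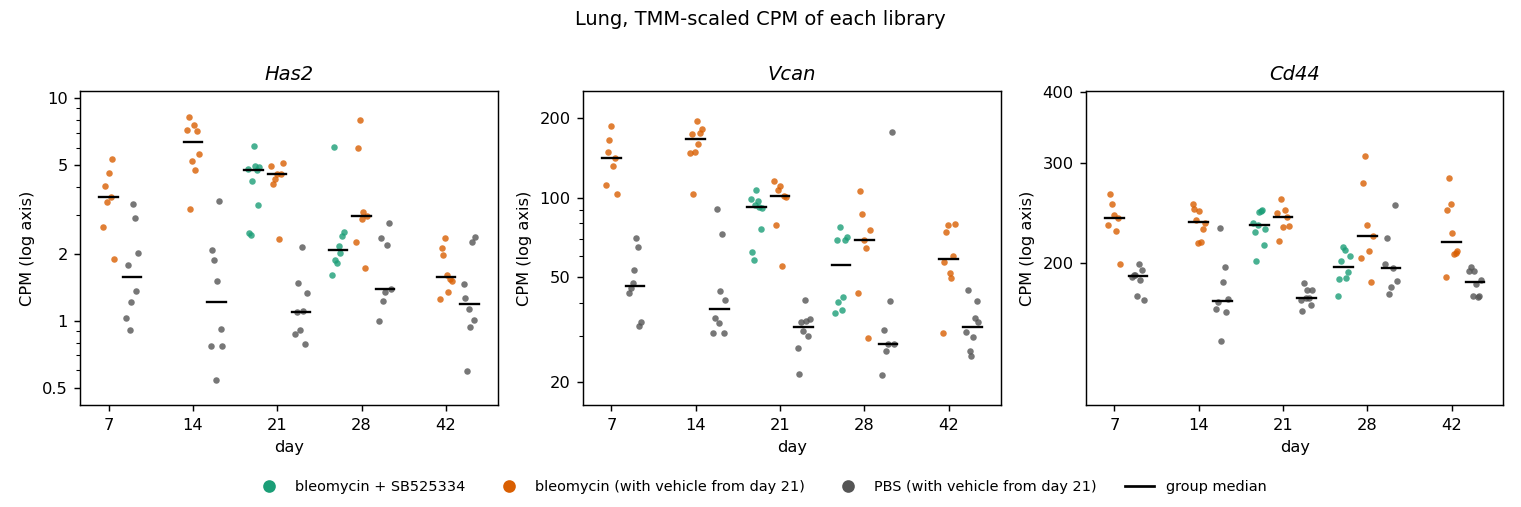
Levels of Has2, Vcan and Cd44 in lung, in CPM on a log axis, by day (x axis), with 1 point per library, bars at medians and colours as groups given bleomycin and SB525334, bleomycin, and PBS. For Vcan the bleomycin libraries of days 7, 14 and 21 lie above all PBS libraries, and on day 28 a single PBS library reaches 178 CPM.

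Cd44 was higher in bleomycin lung on all 5 days. On day 21 it was at 219, 241 and 259 CPM in bleomycin lung and 165, 173 and 185 CPM in PBS lung, without overlap (0.46 ± 0.07, adjusted p = 4.5e-07). The day 28 difference, 0.22 ± 0.08 (adjusted p = 0.0196), was 0.33 on plate 1 and -0.09 on plate 2, and limma-trend lost it without any 1 of PBS replicates 3, 4 and 7 and bleomycin replicates 2 and 3 (adjusted p = 0.0516 to 0.133). The other days gave 0.34 ± 0.07 on day 7, 0.40 ± 0.07 on day 14 and 0.30 ± 0.07 on day 42. Macrophage markers moved with it: of 15 tested in lung, 10 to 13 were higher on each day, and their part was not tested.

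Tnfaip6 was scarce in lung. On day 21 it was at 2.38, 2.87 and 3.67 CPM in bleomycin lung and 1.09, 1.80 and 2.34 CPM in PBS lung, without overlap (0.78 ± 0.20, adjusted p = 0.00119). It was also higher on day 42 (0.54 ± 0.20, adjusted p = 0.0386), a call that limma-trend lost without any 1 of 11 of 16 libraries, namely bleomycin replicates 2, 3, 4, 5, 6 and 8 and PBS replicates 1, 4, 5, 6 and 8 (adjusted p = 0.0571 to 0.113). Without the 18 libraries it was also higher on day 7 (0.62, adjusted p = 0.00189) and day 14 (0.64, adjusted p = 0.000249), where the full set gave 0.29 ± 0.20 and 0.35 ± 0.19 and did not pass the test. The 3 PBS libraries with hair and epidermal markers had its highest PBS values there, 4.38 and 3.78 CPM on day 7 and 4.67 CPM on day 14.

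Both hyaluronidases were lower in bleomycin lung where they passed the test. Hyal2 was at 44.9, 49.6 and 61.0 CPM in bleomycin lung on day 14 and 59.1, 69.1 and 76.8 CPM in PBS lung (-0.46 ± 0.06, adjusted p = 2.31e-09), with all 8 bleomycin libraries below the PBS mean. It was also lower on day 28 (-0.31 ± 0.07, adjusted p = 0.000243) and day 42 (-0.34 ± 0.06, adjusted p = 1.33e-05). Hyal1 was at 10.7, 12.9 and 27.4 CPM in bleomycin lung on day 28 and 17.0, 26.1 and 32.0 CPM in PBS lung (-0.55 ± 0.14, adjusted p = 0.00163), with -0.81 on plate 1 and -0.09 on plate 2. Without the 18 libraries that difference was -0.33 (adjusted p = 0.0854), and the day 14 and day 21 differences, -0.26 ± 0.13 and -0.25 ± 0.13 in the full set, then passed the test (adjusted p = 0.0297 and 0.0363). On day 42 it was at 24.3, 27.0 and 33.5 CPM in bleomycin lung and 30.9, 36.2 and 40.1 CPM in PBS lung (-0.36 ± 0.13, adjusted p = 0.0353). Leaving out any 1 of 13 of the 16 libraries lost the day 42 call by limma-trend, namely bleomycin replicates 1, 2, 3, 4, 6, 7 and 8 and PBS replicates 1, 3, 4, 5, 6 and 7 (adjusted p = 0.0514 to 0.0992). On the days on which Hyal2 was called, vascular endothelial markers were lower too: of 8 tested, 0 were higher and 8 lower on day 14, 6 lower on day 28 and 4 lower on day 42. Hyal1 was not called on day 14 over all libraries (adjusted p = 0.0762). The markers of days 7 and 21, on which neither hyaluronidase was called over all libraries, are not given here. Their summed level was 2075 to 2678 CPM in bleomycin lung and 2887 to 3775 CPM in PBS lung on day 14, and 1846 to 3270 CPM in bleomycin lung and 3496 to 3825 CPM in PBS lung on day 42. The groups did not overlap on either day, and the part of endothelium was not tested. Naa80, with which Hyal1 shares exons, was lower in lung on day 28 (-0.37, adjusted p = 0.00328) and day 42 (-0.25, adjusted p = 0.0454).

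Calls of SB525334 against vehicle in lung were few among the members, near the share over all genes tested. On day 21 none of the 8 was called, beside 0.179% of all genes higher and 0.224% lower, 0.403% in all, and 0 of the 8 had an unadjusted p under 0.05 in edgeR and 0 were called by DESeq2. Has2 was at 2.43, 4.75 and 6.11 CPM with SB525334 and 2.34, 4.59 and 5.10 CPM with vehicle, and Vcan at 58.0, 92.6 and 107 CPM with SB525334 and 55.2, 101 and 115 CPM with vehicle. The groups overlapped for both, with log2 differences of -0.05 ± 0.28 and -0.20 ± 0.24. On day 28 only Cd44 was called of the 8, beside 2.64% of all genes higher and 5.73% lower, 8.37% in all. It was at 175, 197 and 214 CPM with SB525334 and 185, 223 and 309 CPM with vehicle (-0.25 ± 0.07, adjusted p = 0.019). That difference was -0.32 on plate 1 and -0.03 on plate 2, it was -0.23 without the 18 libraries (adjusted p = 0.362), and limma-trend lost it without any 1 of vehicle replicates 2 and 3 and SB525334 replicates 1, 2 and 6 (adjusted p = 0.0597 to 0.159). The 18 include 6 of 8 SB525334 and 4 of 7 vehicle libraries of this comparison. Against PBS, with shared groups, the SB525334 lung of day 21 had higher Has2 (1.78 ± 0.29, adjusted p = 6.38e-07) and Vcan (1.44 ± 0.24, adjusted p = 1.43e-06), 4 of 8 members higher and 1 lower, beside 16.0% of all genes higher and 18.5% lower, 34.6% in all. On day 28 it had 0 higher and 3 lower, beside 24.1% of all genes higher and 27.7% lower, 51.8% in all, namely Has1 (-1.51 ± 0.37, adjusted p = 0.00038), Hyal1 (-0.56, adjusted p = 0.000422) and Hyal2 (-0.19, adjusted p = 0.0105). The Has1 difference was -2.27 without the 18 libraries (adjusted p = 0.0197) and -0.99 without PBS replicate 6 (adjusted p = 0.0147). Hyal1 without the 18 libraries was at 0.04 (adjusted p = 0.925) and Hyal2 at -0.24 (adjusted p = 0.126). Without PBS replicate 6 alone Vcan, at 0.91 (adjusted p = 0.000481), and Has2, at 0.76 (adjusted p = 0.0476), were called higher.

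The skin and lung responses were set against each other as the difference of the bleomycin effects in 1 fit of the libraries of both tissues. On day 7, 5 of 8 members differed (16.6% of all genes), on day 14, 6 (32.3%), on day 21, 2 (30.1%), on day 28, 4 (26.0%), and on day 42, 1 (12.1%). On day 14 the Has3 effect was higher in skin by 2.6 ± 0.58 (adjusted p = 0.000132) and the Has2 effect was lower in skin, with a difference of -1.81 ± 0.33 (adjusted p = 3.13e-06). The Vcan difference was -1.18 ± 0.32 on day 14 (adjusted p = 0.00216) and 1.10 ± 0.35 on day 28 (adjusted p = 0.013). Over all libraries the effect was thus smaller in skin on day 14 and larger in skin on day 28. Tnfaip6 turned likewise, at -1.25 ± 0.33 on day 14 (adjusted p = 0.00135) and 1.48 ± 0.36 on day 28 (adjusted p = 0.000793). The Has1 effect was higher in skin by 2.54 ± 0.58 on day 28 (adjusted p = 0.000397) and by 1.72 ± 0.55 on day 42 (adjusted p = 0.0241). The day 28 lung effects of Vcan and Has1 depended on PBS replicate 6. Without it, in the fit of lung alone, Vcan went from 0.52 to 1.22 and Has1 from -1.07 to -0.54. Skin minus lung was not refitted without that library, so the size of these day 28 differences is uncertain. The Cd44 effect was higher in skin by 0.32 ± 0.11 on day 7, 0.51 ± 0.11 on day 14 and 0.43 ± 0.11 on day 28. The day 21 Hyal2 difference, -0.26 ± 0.11 (adjusted p = 0.0482), did not pass the test without the 18 lung libraries (adjusted p = 0.0593). The day 42 Cd44 difference, -0.29 (adjusted p = 0.0613), then passed it at -0.31 (adjusted p = 0.047). The labels do not say whether the lung and skin libraries of 1 number come from 1 mouse, and the fit takes them as independent.

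**Figure D4:**
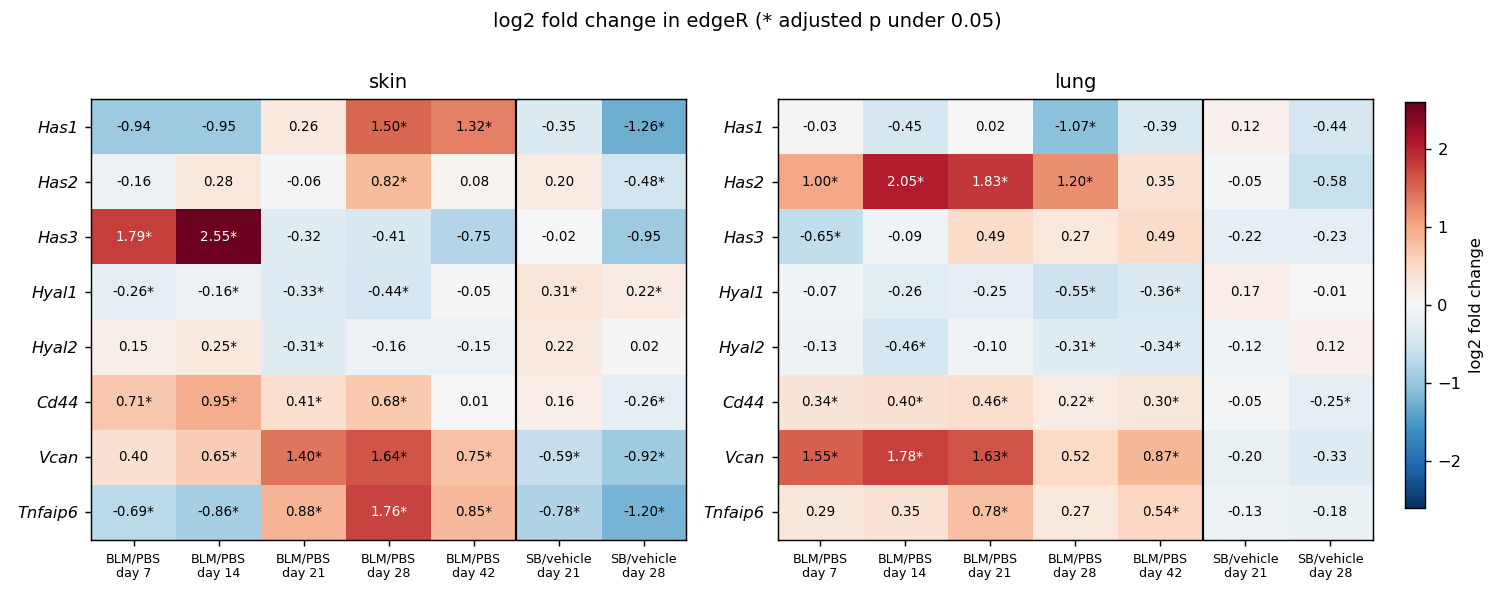
Log2 fold changes of the 8 members (rows) in each tissue and day for bleomycin against PBS and for SB525334 against vehicle (columns); colour and number give the log2 fold change, and an asterisk marks adjusted p under 0.05. Has3 in skin is high on days 7 and 14, and Vcan, Tnfaip6 and Has1 on day 28.

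**Figure D5:**
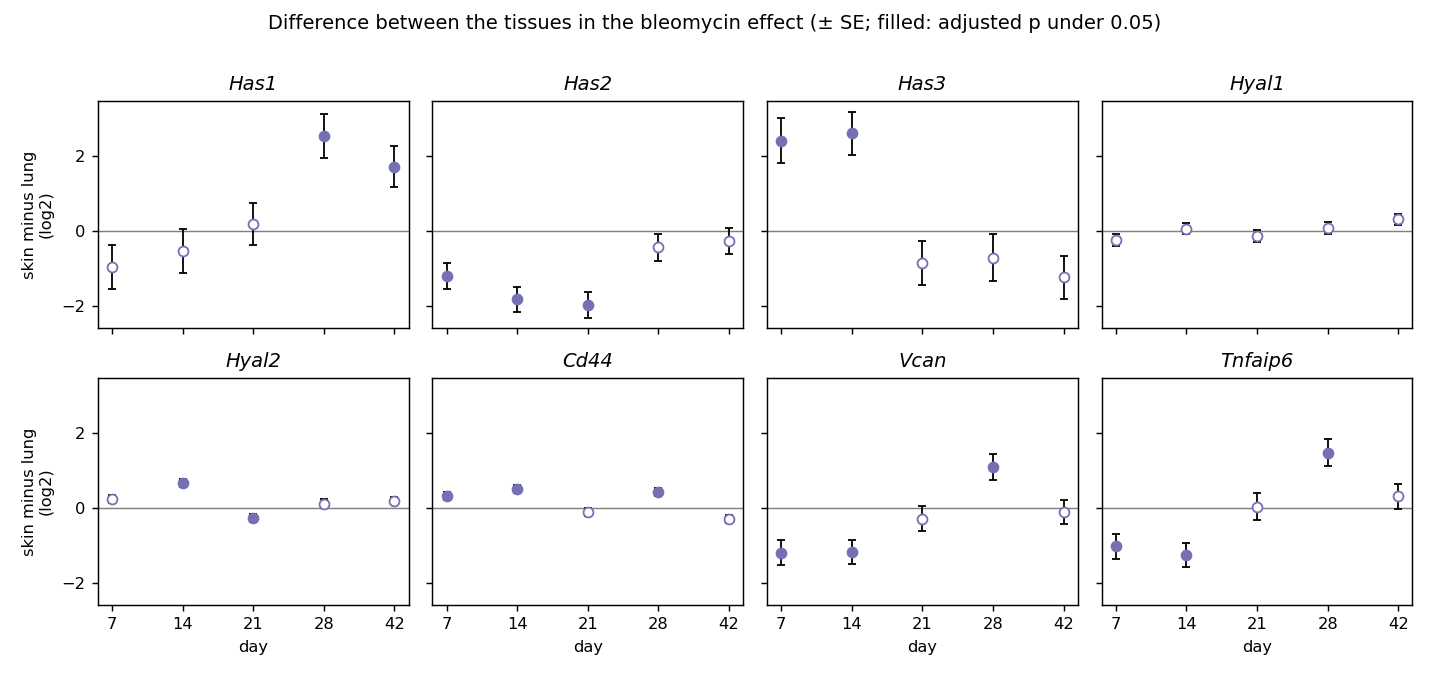
Difference of the bleomycin effects, skin minus lung, on the log2 scale (y axis) by day (x axis) in 1 panel per member, with bars of 1 SE and filled points where adjusted p was under 0.05. Over all libraries, Vcan and Tnfaip6 lie below 0 on day 14 and above 0 on day 28.

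Of 45 other genes of hyaluronan metabolism and binding, also listed with earlier results of these data known, 37 were tested in each tissue. In skin 6 were higher and 8 lower in bleomycin mice on day 7, 7 and 8 on day 14, 19 and 2 on day 21, 20 and 0 on day 28, and 11 and 0 on day 42, beside 46.2%, 59.6%, 41.2%, 24.3% and 10.2% of all genes called on these days in either direction. The median log2 fold change of the 37 was 0.49 on day 28 beside -0.03 over all genes. In lung 10 were higher and 3 lower on day 7, 12 and 4 on day 14, 17 and 1 on day 21, 11 and 4 on day 28, and 10 and 3 on day 42, beside 31.7%, 46.4%, 35.3%, 38.1% and 19.4% of all genes called. If the 18 libraries are left out, 17 were higher and 7 lower on day 14, and 7 higher and 3 lower on day 28. Of the 8 enzymes that make the UDP-sugar precursors of the chain, 0 were higher and 3 lower in skin on days 7 and 14, and 6 were higher and 0 lower on day 28. On that day Gnpnat1 was higher by 0.68 ± 0.08 (adjusted p = 1.65e-10) and Pgm3 by 0.53 ± 0.08 (adjusted p = 2.53e-07), both steps to UDP-N-acetylglucosamine. Gfpt2, which feeds glucosamine into the same route, had log2 fold changes of -1.06 on day 7, -2.0 ± 0.22 on day 14 (adjusted p = 1.18e-12) and -0.65 on day 21. Ugp2, which makes UDP-glucose, had log2 fold changes of -0.35 on day 7 and 0.64, 0.44 and 0.28 on days 21, 28 and 42, and Uap1 of -0.30 on day 14 and 0.21, 0.44 and 0.25 on those later days.

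Genes of breakdown and uptake moved in both tissues, and the lung values in these paragraphs are over all libraries, including the 18 that stood apart. The day 28 lung calls of Hmmr, Lyve1, Ptx3, Adamts5 and Adamts9 were lost without the 18 (adjusted p = 0.288, 0.831, 0.0517, 0.071 and 0.254). So was that of Adamts20 on day 7 (adjusted p = 0.197). Cemip, a protein needed to depolymerise long hyaluronan, was higher in bleomycin skin by 2.85 ± 0.58 on day 7 (adjusted p = 4.08e-05) and 4.68 ± 0.61 on day 14 (adjusted p = 6.32e-10), and in lung by 2.01, 2.20, 1.87 and 2.07 on days 14, 21, 28 and 42. The lysosomal exoglycosidases Gusb and Hexa, which act on hyaluronan fragments, were higher in lung on all 5 days, with log2 fold changes of 0.47, 0.92, 0.99, 0.70 and 0.52 for Gusb and 0.27, 0.59, 0.90, 0.60 and 0.43 for Hexa. In skin Gusb was higher on all 5 days, by 0.60, 0.74, 0.84, 0.61 and 0.40. Tlr2, a receptor of innate immunity that senses fragments, was higher in skin on all 5 days, by 1.08, 1.75, 1.51, 1.08 and 0.69, and in lung by 0.68 on day 7 and 0.95 on day 14. Hmmr, a hyaluronan-binding protein of dividing cells, was higher in lung by 2.28, 0.94, 2.04 and 0.88 on days 7 to 28, and in skin by 0.86 on day 7 and 1.40 on day 14. Lyve1, the hyaluronan receptor of lymphatic endothelium, had skin log2 fold changes of -0.90, -1.55, 0.90 and 0.89 on days 7 to 28, and was lower in lung on day 28 (-0.58) and day 42 (-0.64). Hyal3, a relative of Hyal1, was lower in skin on day 21 (-0.58 ± 0.23), and Layn, a hyaluronan receptor, was higher there on day 42 by 0.58, as was Itih2 by 1.27.

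Among the genes that remodel the versican and hyaluronan matrix, Adamts4 was called higher and Adamts5 lower in lung on all 5 days over all libraries, both proteases that cut versican. Adamts4 was higher in lung by 1.33, 2.34, 2.6, 1.02 and 1.16 on the 5 days and in skin by 0.98, 2.38, 1.45 and 1.47 on days 7 to 28. Adamts5 was lower in lung throughout, at -0.48, -0.49, -0.65, -0.43 and -0.35, and in skin at -1.10 on day 7 and -1.36 on day 14, but higher on day 28 at 0.84 ± 0.14. Adamts20 was lower in lung on day 7 (-0.92 ± 0.26) and Adamts9 on days 28 (-0.45) and 42 (-0.46). Adamts15 had skin log2 fold changes of -0.67, -0.71, 0.97 and 1.72 on days 7 to 28. Ptx3, which cross-links hyaluronan with the product of Tnfaip6 and inter-alpha-inhibitor, was higher in lung by 1.51, 1.92, 1.81 and 1.23 on days 7 to 28 and in skin by 3.08 ± 0.49 on day 21. Itih5, a heavy chain gene of the inter-alpha-inhibitor family, had skin log2 fold changes of -0.91, -1.22, 0.48 and 0.58 on days 7, 14, 28 and 42, and was lower in lung on day 7 (-0.84) and day 14 (-0.76). Bcan, which encodes the proteoglycan brevican, was lower in lung on day 14 (-1.09 ± 0.18), and Uap1l1 was higher by 0.42, 0.42, 0.39 and 0.23 on days 14 to 42. In lung on day 42 Itih1, Itih2 and Itih3, the heavy chain genes that liver makes most, had log2 fold changes of 2.86, 2.67 and 3.34. They rested on 1 bleomycin library, replicate 1, which held 20888 CPM of liver markers and had 144, 229 and 146 CPM of the 3 genes, whereas the other 7 bleomycin libraries had 2.28 to 4.18, 2.77 to 5.02 and 1.69 to 2.69 CPM and the 8 PBS libraries 2.20 to 3.88, 4.17 to 5.86 and 1.08 to 2.50 CPM.

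With SB525334 against vehicle, 1 of the 37 was higher and 6 were lower in skin on day 21, and 1 was higher and 13 were lower on day 28, beside 11.8% and 23.9% of all genes called. Hyal4, a chondroitin-cleaving relative of the hyaluronidases, was the higher one, by 0.51 ± 0.16 on day 21 and 0.54 ± 0.16 on day 28. Ugdh, which makes UDP-glucuronic acid for the chain, was lower on day 28 (-0.57 ± 0.10, adjusted p = 2.46e-05), as were Itih5 (-0.84 ± 0.15) and Gnpnat1 (-0.37 ± 0.08). On day 21 Adamts5 (-0.47), the link protein gene Hapln1 (-1.19) and Itih5 (-0.51) were lower. In lung, beside 0.403% and 8.37% of all genes called, 0 were higher and 1 lower on day 21, namely Adamts9 (-0.60 ± 0.14), and 0 higher and 7 lower on day 28, among them Adamts9 (-0.68), Cemip (-2.03 ± 0.54) and Stab1 (-0.55). None of the 7 passed the test on day 28 without the 18 libraries, among which are 6 of 8 SB525334 and 4 of 7 vehicle libraries of that day. The smaller groups and the change of composition cannot be told apart in these lost calls. There Adamts9 was at -0.49 (adjusted p = 0.177), Cemip at -2.11 (adjusted p = 0.246) and Stab1 at -0.61 (adjusted p = 0.184).

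Over the 93 libraries of a tissue, after plate means were removed, the genes most like each member by Pearson correlation of log2 CPM were taken from 13454 genes in skin and 13432 in lung. In skin Vcan was most like Ccn4 (r = 0.92), Chsy1 (0.92) and Fbn2 (0.91), and Tnfaip6 most like Dpysl3 (0.88), Col6a2 (0.88) and Col6a1 (0.87). Has1 in skin was most like Ccn1 (0.85), Apold1 (0.85) and Tnfaip6 (0.84), Has2 like Ptgs2, Wsb1 and Lhfpl2 (0.72 each), and Has3 like Kpna2 (0.88), Nup205 (0.86) and Ammecr1 (0.86). Cd44 was most like Tpm4 (0.91), Slc39a1 (0.88) and Eif1a (0.88), Hyal2 like S100a14 (0.85), Ap1m2 (0.84) and Rangap1 (0.81), and Hyal1 like Slc16a13 (0.71). In lung Has2 was most like Ereg (0.90), Psat1 (0.87) and Chl1 (0.87), Vcan like Sfrp1 (0.92), Ckap2 (0.90) and Slfn9 (0.90), and Cd44 like Mrc1 (0.87), Tnc (0.86) and Adamts4 (0.86). The lung Has1 level was most like Gfpt2 (0.76), that of Has3 like Esrp1 (0.72), that of Hyal1 like Rdx (0.92), that of Hyal2 like Icam2 (0.82) and that of Tnfaip6 like Gja1 (0.69). Between members, lung Cd44 and Vcan and lung Has2 and Vcan each gave 0.83 and lung Cd44 and Has2 0.79, whereas in skin Has1 and Tnfaip6 gave 0.84, Tnfaip6 and Vcan 0.68 and Has2 and Tnfaip6 0.66. These libraries share treatment groups, tissue composition and depth, and the correlations describe them only.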

How the data were processed

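The authors deposited a table of expected counts per gene, and a table of log2 CPM values, named as corrected for plate and used here as an alternative. The submitters' processing notes name RSEM, edgeR and GRCm38. The strand setting and the versions are not given in the sources used here. Expected counts, of which 83.7% were whole, were rounded. Gene symbols were matched for 21852 of 22095 IDs. In R 4.3.3, edgeR 4.0.16 was run with TMM scaling, filterByExpr by group, 12 groups and a plate term in 1 fit per tissue, with quasi-likelihood tests and Benjamini-Hochberg adjustment over all genes tested. Genes were called at adjusted p under 0.05, and the SE is the log2 fold change over the root of F. Levels are TMM-scaled CPM, and within-plate differences are of log2(CPM + 0.1). Alternatives used limma 3.58.1 (prior count 2) and DESeq2 1.42.0. The pipeline was tested on simulated data. No 2 libraries were identical. The labels do not say that libraries are separate mice, so p-values measure the spread between libraries. The total counts limit the precision of genes at a few CPM.

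The members, and the lists of other genes and markers, were chosen with earlier results of these data known. All 8 members are reported. Other hyaluronan genes were named, up to 3 per direction and comparison, by the smallest p among those called, with any called on 4 or more days. The genes most like a member were the 3 with the highest correlation of log2 CPM among genes averaging 1 or more on the log2 CPM scale. Sequences are from RefSeq, trimmed to the bases before the outermost GENCODE start.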

Additional observations from a re-analysis of the deposited data

Results flagged for a closer look

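Of 192 sets of 1 gene in 1 group, 17 held a library whose gap to its nearest neighbour, on the scale of log2(CPM + 0.1), was too large a share of the group's range by Dixon's criterion. Chance alone flags about 1 in 20 groups. In lung the high libraries were PBS replicate 5 of day 21 for Has1 (7.31 CPM, next 2.69), SB525334 replicate 2 of day 28 for Has2 (6.05 CPM, next 2.51) and for Tnfaip6 (4.84 CPM, next 2.95), PBS replicate 6 of day 14 for Has3 (8.69 CPM, next 3.33), SB525334 replicate 3 of day 21 for Hyal1 (42.6 CPM, next 35.9), and PBS replicate 6 of day 28 for Vcan (178 CPM, next 40.7). Of these, SB525334 replicate 2 of day 28 and PBS replicate 6 of day 14 belong to the 18 libraries that stood apart by composition. The low lung libraries were bleomycin replicate 5 of day 21 for Has2 (2.34 CPM, next 4.10), PBS replicate 5 of day 14 for Hyal2 (59.1 CPM, next 68.6), bleomycin replicate 1 of day 42 for Tnfaip6 (1.3 CPM, next 2.41), PBS replicate 2 of day 28 for Tnfaip6 (1.57 CPM, next 2.44) and bleomycin replicate 3 of day 14 for Vcan (103 CPM, next 148). Both low Tnfaip6 libraries belong to the 18 as well.

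In skin the high libraries were bleomycin replicate 4 of day 21 for Has3 (48.9 CPM, next 9.43) and SB525334 replicate 6 of day 28 for Hyal1 (47.4 CPM, next 38.2). The low ones were bleomycin replicate 5 of day 28 for Has2 (18.2 CPM, next 30.6), PBS replicate 8 of day 7 for Hyal2 (18.6 CPM, next 25.1), bleomycin replicate 1 of day 14 for Tnfaip6 (3.96 CPM, next 7.01) and SB525334 replicate 6 of day 28 for Vcan (253 CPM, next 420). SB525334 replicate 6 of day 28 thus stood apart from its group for both Hyal1 and Vcan.

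Of 56 differences between the effects of bleomycin on 2 days or in 2 tissues, 24 passed edgeR's quasi-likelihood test. Day 42 minus day 14 gave -1.70 for Has2 in lung, and in skin 2.26 for Has1, -3.30 for Has3, -0.40 for Hyal2, -0.94 for Cd44 and 1.71 for Tnfaip6. Skin minus lung on day 7 gave -1.18 for Has2 (adjusted p = 0.00841), 2.40 for Has3 (adjusted p = 0.00173), 0.32 for Cd44 (adjusted p = 0.0317), -1.19 for Vcan (adjusted p = 0.006) and -1.02 for Tnfaip6 (adjusted p = 0.0219). On day 14 it gave -1.81 for Has2, 2.6 for Has3, 0.67 for Hyal2 (adjusted p = 3.42e-08), 0.51 for Cd44, -1.18 for Vcan and -1.25 for Tnfaip6. On day 21 it gave -1.95 for Has2 (adjusted p = 3.51e-06) and -0.26 for Hyal2. On day 28 it gave 2.54 for Has1, 0.43 for Cd44, 1.10 for Vcan and 1.48 for Tnfaip6, and on day 42 it gave 1.72 for Has1.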

How the results depend on the processing

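Of 908 values of called members under other settings, 843 kept their direction and their call, 64 kept the direction and lost the call, and 1 reversed. Without the libraries that stand apart, Hyal1 in SB525334 lung against PBS on day 28 became 0.0369. The count of called members moved by over 1.5 times in 23 of 232 cases. Without the libraries that stand apart, it was 7 on day 14 and 3 on day 28 for bleomycin lung, 0 for SB525334 against vehicle and 1 for SB525334 against PBS in lung on day 28, and, for skin minus lung, 1 on day 21 and 2 on day 42. With only the 2 groups compared in the fit, it was 0 for bleomycin lung and 0 for SB525334 against vehicle on day 28, 0 for bleomycin skin on day 42 and 2 for SB525334 skin against PBS on day 28. Without PBS replicate 6, an alternative chosen after seeing the data, SB525334 lung against PBS on day 28 gave 5. For lung day 42 minus day 14, DESeq2, the replicate block, and limma-trend on the deposited values and on all libraries each gave 2. With hair and muscle terms, also chosen after seeing the data, bleomycin skin on day 21 gave 3. The deposited log2 values gave 1 for SB525334 against vehicle in skin on day 21 and 2 for SB525334 skin against PBS on day 28. For skin minus lung on day 21, RLE size factors, no filter, DESeq2, no plate term and the replicate block each gave 1. The cause was not tested in any of these.

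The replicate numbers gave no clear pairing of the libraries within a tissue. After group and plate were removed, correlations of same-numbered libraries ran from -0.75 to 0.53 over 18 comparisons. Their medians per comparison ran from -0.29 to 0.14, beside -0.01 to 0.04 for other numbers. These values cannot show that same-numbered libraries share nothing. Between lung and skin libraries of 1 group and number the correlations ran from -0.24 to 0.52 over 93 pairs, with a median of 0.00332, beside 0.000981 for other numbers. Of the 93, 13 correlated best with their own number, so no fit paired by number was made for skin minus lung. With the replicate number as a block, Has2 for SB525334 against vehicle in skin on day 28 was -0.46 (adjusted p = 0.0619), Has3 for SB525334 skin against PBS on day 28 was -1.27 (adjusted p = 0.0861) and Hyal2 for skin minus lung on day 21 was -0.26 (adjusted p = 0.0591), and 107 other calls held. The libraries left out for composition were all of lung, the only tissue given the ribosomal and marker rules, so no skin fit was made without them. Over all genes, SB525334 against vehicle in lung gave 63 calls on day 21 and 1310 on day 28 in the full set, and 353 and 135 without the libraries that stand apart. Those include 6 of 8 SB525334 and 4 of 7 vehicle libraries of day 28. With only the 2 groups compared, bleomycin against PBS in lung on day 28 gave 120, beside 5955, and in skin on day 42 gave 387, beside 1620. Genes at a few CPM or less, Has1, Has2, Has3 and Tnfaip6 in lung and Has1 in skin on days 7 and 14, are limited by depth.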
